A study of Homo sapiens with 372 samples.

Results

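Celecoxib and paclitaxel were each given alone for 16 h to A2780 cells, an established human ovarian cancer line, and the transcripts of single cells were compared between the drugs. All cells labelled with 1 of these treatments at 16 h were taken, which gave 61 celecoxib and 56 paclitaxel cells of 338 cells in 6 conditions. Paclitaxel was given at 5 nM and celecoxib at 75 µM, 1 dose each, so that the drugs were not compared at matched doses. The other 4 conditions were untreated control cells (46 cells), paclitaxel for 48 h (53 cells), celecoxib for 2 h (63 cells) and both drugs together for 16 h (59 cells), and they appear only as reference levels. Cells were captured on the Fluidigm C1 system and their polyA-tailed RNA was copied at full length with Smart-seq2. No second culture or capture is named for a condition, so that each condition counts as 1 sample. Cells are therefore not replicates of a treatment, no test was made between the drugs, and every SD is a spread over cells of 1 condition. The 61 celecoxib cells carried library indices of block 3 and the 56 paclitaxel cells those of block 1, so that drug and index block cannot be told apart. Blocks are consecutive runs of library index numbers, set for this comparison from the numbers alone.

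Paclitaxel binds beta tubulin in the microtubule and stabilizes it, and dividing cells then stall at the spindle checkpoint. Celecoxib inhibits cyclooxygenase-2, the inducible enzyme of prostaglandin synthesis. The genes of both cyclooxygenases, PTGS1 and PTGS2, are not among the genes with values, so that they could not be compared. A further pathway that the comparison touches is the integrated stress response, in which kinases that sense amino acid shortage, misfolded protein in the endoplasmic reticulum, haem shortage or viral RNA phosphorylate initiation factor eIF2, general protein synthesis drops and the mRNA of the transcription factor ATF4 is translated. ATF4 with its CEBP partners then switches on amino acid synthesis, amino acid transport, tRNA charging and the factor CHOP, which is encoded by DDIT3.

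The sites that ATF4 and CEBP proteins share have a recognizable sequence, and some promoters of the genes described next hold it. Promoters are RefSeq sequences on GRCh38.p14, from 250 bases before to 50 bases after each gene's start, and 7549 of the 9120 genes compared had an entry. The letters TGATGNAA, on either strand, stood in 6 of 26 promoters of the ATF4 and CHOP list (23.1%), in 6 of 16 promoters of aminoacyl-tRNA synthetases (37.5%) and in 1.59% of all 7549 promoters. They stood in 12 of 229 promoters of genes higher in celecoxib cells (5.24%) and in 4 of 309 of genes higher in paclitaxel cells (1.29%). The 12 include the list members ASNS, CHAC1, HERPUD1, SLC3A2, AARS, CARS, IARS and MARS. This share thus repeats in part the shares of the lists. The following stretches are examples from genes higher in celecoxib cells with a match before the start. IARS, with a match 13 bases before the start, is not shown. The stretches are written along the gene's own strand with the match in capitals. The match begins 68 bases before the start in ASNS (chr7:97872413-97872532, minus strand), 209 bases before it in CHAC1 (chr15:40953221-40953325, plus strand), 176 bases in HERPUD1 (chr16:56931910-56932029, plus strand) and 187 bases in AARS (chr16:70289630-70289749, minus strand).
ASNS: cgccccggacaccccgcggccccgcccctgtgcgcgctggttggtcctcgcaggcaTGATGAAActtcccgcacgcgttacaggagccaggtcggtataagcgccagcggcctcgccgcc
CHAC1: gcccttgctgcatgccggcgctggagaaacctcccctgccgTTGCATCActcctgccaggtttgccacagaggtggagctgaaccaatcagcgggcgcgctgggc
HERPUD1: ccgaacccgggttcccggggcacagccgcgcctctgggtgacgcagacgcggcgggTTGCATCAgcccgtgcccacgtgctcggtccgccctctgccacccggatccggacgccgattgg
AARS: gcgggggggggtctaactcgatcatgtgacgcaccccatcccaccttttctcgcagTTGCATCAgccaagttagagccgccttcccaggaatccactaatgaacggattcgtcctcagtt
The match reads forward in ASNS and on the opposite strand in CHAC1, HERPUD1 and AARS. A match describes the letters of the window and says nothing of binding in these cells.

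Values are E-values, which the authors define as log2(N/10 + 1). N stands for transcript abundance in TPM, set relative to the spike-in RNA with the highest level in that cell. TPM is per transcript length, so that levels of different genes can be set side by side. Celecoxib cells held less RNA relative to the spike-ins than paclitaxel cells. With the control median at 0, the log2 sum of N over all 9664 genes listed had a median of −0.99 in paclitaxel cells (lowest −1.91, highest 1.53, SD 0.65) and of −1.52 in celecoxib cells (lowest −2.38, highest −0.72, SD 0.43). The paclitaxel median was thus 1.45-fold that of celecoxib. The ranges overlapped: 51 of 61 celecoxib cells lay below the paclitaxel median, and 8 of 56 paclitaxel cells lay below the celecoxib median, while 21 paclitaxel cells exceeded the highest celecoxib cell. The number of reads is unknown, and depth was described by genes with an E-value above 0, whose median was 6126 in paclitaxel cells (4817 to 8316) and 6329 in celecoxib cells (5021 to 7084).

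Because the totals differed, each gene was compared on the deposited scale and again with all cells brought to 1 common total of N, called the same total here. Of the 9664 genes, 9120 were compared, which had an E-value above 0 in more than 30% of celecoxib or of paclitaxel cells. A gene was counted when the mean E-values of the drugs differed by over log2 of 1.5, and this limit describes a size of difference and is not a test. On the deposited scale 281 genes (3.08%) were higher in celecoxib cells and 1207 (13.2%) in paclitaxel cells. At the same total 973 genes (10.7%) were higher in celecoxib cells and 4.21% of genes in paclitaxel cells. Celecoxib genes thus made up 18.9% of those past the limit before the rescaling and 71.7% after it. The median difference over all genes, celecoxib minus paclitaxel, moved from −0.09 to 0.09 on the log2 scale between the scales. No gene passed the limit in opposite directions. On both scales 665 genes passed, 281 of them higher in celecoxib cells (3.08% of the genes compared) and the others higher in paclitaxel cells (4.21%), and the following describes these. The 281 were all those past the limit for celecoxib on the deposited scale. The others were all those past it for paclitaxel at the same total. Celecoxib cells had the lower totals, so that rescaling shifts differences toward celecoxib. Passing on both scales is therefore not a second check, and the stricter scale differs between the directions. Counts of gene lists below stand beside 3.08% and 4.21% of all genes. Unless stated otherwise, levels are mean E-values at the same total ± SD over cells, and differences are celecoxib minus paclitaxel.

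**Figure D1:**
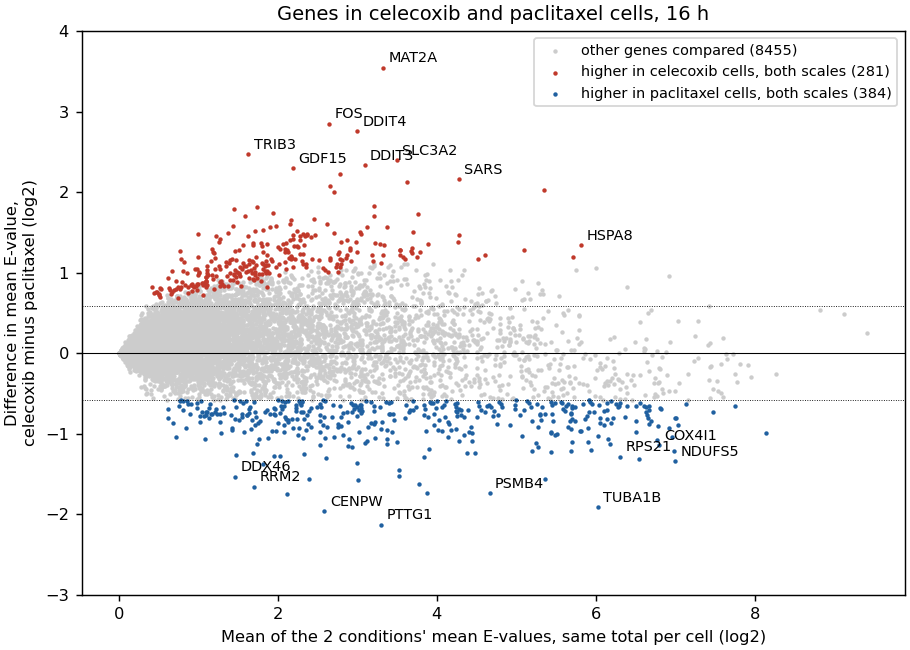
Each point is 1 of the 9120 genes compared. The x axis gives the mean of the mean E-values of both drugs and the y axis the difference in mean E-value, celecoxib minus paclitaxel, both on the log2 scale at the same total per cell, with dotted lines at the limit of 1.5-fold. The 281 genes higher in celecoxib cells on both scales are led by MAT2A, and those higher in paclitaxel cells reach to the most abundant genes, with TUBA1B, NDUFS5 and COX4I1 among them.

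The stress response genes were higher in celecoxib cells, and no member passed the limit in favour of paclitaxel. The gene lists, this one and the others, were chosen with earlier results of these data known. Their counts are therefore not independent evidence. Of 33 genes compared in the ATF4 and CHOP list, 19 passed the limit on both scales in favour of celecoxib, beside 3.08% of all genes, and the median difference of the list was 1.01 at the same total and 0.70 on the deposited scale. The mean E-value of the list per cell had a median of 2.40 in celecoxib and 1.08 in paclitaxel cells. All 61 celecoxib cells exceeded the paclitaxel median of this mean, and 49 exceeded the highest paclitaxel cell. Control cells had a median of 1.29, celecoxib at 2 h 2.01, the combination 2.00 and paclitaxel at 48 h 1.57. Celecoxib at 16 h was thus the highest of the 6 conditions and paclitaxel at 16 h the lowest.

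Among the transcription factors of the list 5 of 7 passed. ATF4 itself was at 4.57 in celecoxib and 3.21 in paclitaxel cells, against 3.41 in control cells. DDIT3, which encodes CHOP, was at 4.26 ± 1.95 and 1.92 ± 1.71 (2.17 in control). CEBPG, a dimer partner of ATF4, was at 2.77 and 1.19, CEBPB at 1.35 and 0.36, and NUPR1 at 1.09 and 0.15. The control levels of CEBPG, CEBPB and NUPR1 were 1.24, 0.29 and 0.00, so that the paclitaxel level of each of the 5 factors lay near control. DDIT3 was detected in 53 of 61 celecoxib cells (86.9%, exact Clopper-Pearson 95% interval 75.8 to 94.2%) and in 37 of 56 paclitaxel cells (66.1%, 52.2 to 78.2%). These intervals, here and elsewhere, cover counting error over cells only.

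Of 11 feedback and effector genes 7 passed, DDIT4 and TRIB3 among them. DDIT4 (ENSG00000168209, chr10:72273919-72276036 of hg38), an inhibitor of mTORC1, had a lowest, median and highest value of 0.00, 1.65 and 3.98 in paclitaxel cells and of 0.08, 4.56 and 6.41 in celecoxib cells. Its means were 1.61 ± 1.3 and 4.37 ± 1.39, a difference of 2.76 (2.31 on the deposited scale), and no paclitaxel cell exceeded the celecoxib median. TRIB3, a pseudokinase that dampens ATF4 and AKT signalling, was detected in 17 paclitaxel cells (30.4%, 18.8 to 44.1%) and 53 celecoxib cells (86.9%, 75.8 to 94.2%). Its mean was 0.39 ± 0.80 under paclitaxel, 2.87 ± 1.94 under celecoxib, 0.25 in control cells and 1.45 at 2 h of celecoxib. GDF15, a secreted stress hormone that is also a p53 target, was at 1.04 ± 1.69 and 3.34 ± 2.13, and it reached 3.00 at 48 h of paclitaxel. HERPUD1, which serves degradation at the endoplasmic reticulum, was at 1.70 ± 1.47 and 3.71 ± 1.01 and was found in all 61 celecoxib cells. CHAC1, which degrades glutathione, was at 0.63 and 2.12. SESN2, STC2, VEGFA and TNFRSF10B did not pass on both scales, with differences between 0.38 and 0.68 at the same total. Of the whole list 24 genes passed with linear means, that is with log2 of the ratio of the mean N of each drug in place of mean E-values, and 28 with a pseudocount of 1 normalized TPM in place of 10. None of these favoured paclitaxel. With linear means 907 of all 9120 genes passed on both scales in favour of celecoxib and 834 in favour of paclitaxel. With a pseudocount of 1 normalized TPM the counts over all genes were 1156 and 1027.

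Amino acid synthesis and transport genes were higher with celecoxib for 7 of 15 genes compared. PSAT1 and PSPH, in the pathway from glucose to serine, were at 4.69 and 3.49 in celecoxib cells and 2.57 and 2.35 in paclitaxel cells. PHGDH, the first enzyme of that pathway, differed by 1.11 at the same total and by 0.58 on the deposited scale, just short of the limit there. ASNS, asparagine synthetase, had a mean of 4.13 ± 1.27 in celecoxib and 2.29 ± 1.53 in paclitaxel cells. ASNS was higher still at 2 h of celecoxib (4.75) and with the combination (4.32). SHMT2 of mitochondrial folate metabolism was at 3.15 and 1.70. The transporter subunit SLC3A2 was at 4.70 ± 0.95 and 2.30 ± 1.58, its cystine-carrying partner SLC7A11 at 1.32 ± 0.94 and 0.29 ± 0.59, and the glutamine carrier SLC1A5 at 2.54 and 1.18. SLC7A11 was detected in 58 celecoxib cells (95.1%, 86.3 to 99.0%), in 17 paclitaxel cells (30.4%, 18.8 to 44.1%) and in 12 of 46 control cells.

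The gene that differed most was MAT2A (ENSG00000168906, chr2:85539168-85545281), the enzyme that makes the methyl donor S-adenosylmethionine. Its lowest, median and highest values were 0.00, 1.94 and 3.46 in paclitaxel cells and 2.79, 5.26 and 6.41 in celecoxib cells. All 61 celecoxib cells exceeded the paclitaxel median and no paclitaxel cell reached the celecoxib median, although the ranges met between 2.79 and 3.46. The means were 1.55 ± 1.20 and 5.10 ± 0.73, a difference of 3.55 at the same total and 3.06 on the deposited scale. Control cells were at 2.38, celecoxib at 2 h at 2.81, the combination at 2.58 and paclitaxel at 48 h at 2.44, so that the level above 5 was seen in celecoxib cells at 16 h and in no other condition. Further genes that led the comparison were OVCA2 (3.90 ± 0.97 and 1.67 ± 1.32), whose locus overlaps DPH1, so that shared reads make its level uncertain, and APOE, a lipid-carrying apolipoprotein (3.70 ± 1.77 and 1.63 ± 1.67). ASS1, which makes argininosuccinate from citrulline and aspartate, was detected in 39 celecoxib cells (63.9%, 50.6 to 75.8%) and 8 paclitaxel cells (14.3%, 6.38 to 26.2%). ALDH1L2 of mitochondrial folate metabolism was detected in 40 (65.6%, 52.3 to 77.3%) and 9 cells (16.1%, 7.62 to 28.3%).

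Aminoacyl-tRNA synthetases, which charge tRNA with amino acids, were split. Of the 20 cytosolic enzymes 7 passed on both scales, all higher in celecoxib cells, with a list median of 0.85 at the same total and 0.30 on the deposited scale. SARS was at 5.36 ± 0.91 in celecoxib and 3.20 ± 1.11 in paclitaxel cells, and no paclitaxel cell exceeded the celecoxib median. MARS was at 4.63 ± 1.02 and 2.90 ± 1.55, and WARS, CARS, AARS and IARS differed by between 1.33 and 1.45. YARS was at 3.79 and 2.29. VARS, QARS, DARS, FARSB and RARS lay between −0.44 and −0.08. The genes that passed included 4 of the 6 whose promoters hold the ATF4 and CEBP letters, namely AARS, CARS, IARS and MARS. With a pseudocount of 1 normalized TPM 9 synthetase genes were higher in celecoxib and 2 in paclitaxel cells, beside 1156 and 1027 of all 9120 genes.

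**Figure D2:**
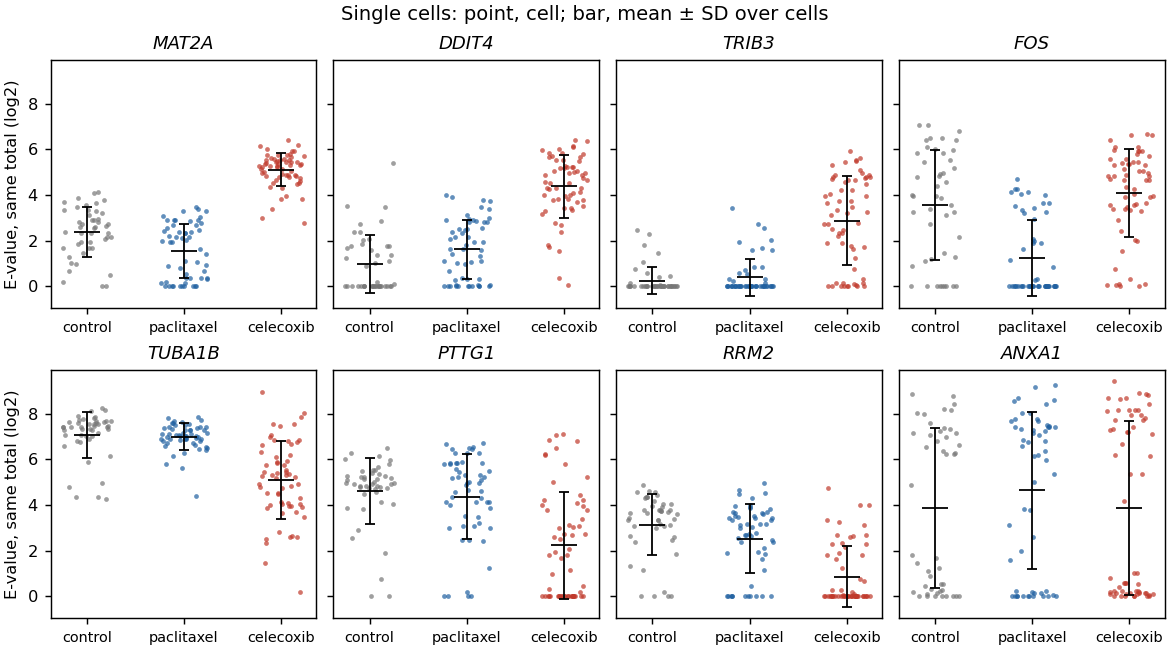
Each point is a cell (46 control, 56 paclitaxel and 61 celecoxib cells, both drugs 16 h), the y axis is its E-value at the same total on the log2 scale, and the bars are the mean ± SD over cells. MAT2A, DDIT4 and TRIB3 are highest in celecoxib cells, FOS is lowest in paclitaxel cells, TUBA1B, PTTG1 and RRM2 are lowest in celecoxib cells, and ANXA1 falls into a low and a high set of cells in all 3 conditions.

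Immediate early genes differed in another way, since paclitaxel cells lay below the control level. The mean of the list had a median of 0.50 in paclitaxel, 1.28 in celecoxib and 1.09 in control cells. Of 14 genes compared 3 passed, all higher in celecoxib cells, and the list median was 0.58 at the same total and 0.43 on the deposited scale. FOS, a subunit of AP-1, had a lowest, median and highest value of 0.00, 0.00 and 4.68 in paclitaxel cells and of 0.00, 4.66 and 6.67 in celecoxib cells. The mean of FOS was 1.22 ± 1.67 with paclitaxel, 4.07 ± 1.92 with celecoxib and 3.57 in control cells. It was 3.50 at 48 h of paclitaxel and 2.02 with the combination. IER2 was at 0.56 ± 0.78 and 1.81 ± 1.16 (1.57 in control) and JUNB at 0.40 ± 0.66 and 1.08 ± 0.98 (0.89 in control). With linear means 9 of the genes passed in favour of celecoxib, beside 907 of all 9120 genes. The AP-1 letters TGANTCA stood in 3.93% of the promoters of genes higher in celecoxib cells and in 3.67% of all promoters.

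Chaperone genes were mixed. Of 25 chaperones and sensors of the endoplasmic reticulum 4 passed with celecoxib higher and 1 with paclitaxel higher, with a list median of 0.22 at the same total and −0.12 on the deposited scale. HSPA5, the main chaperone of that compartment, was at 4.96 ± 0.99 in celecoxib and 3.57 ± 1.07 in paclitaxel cells, and XBP1, a transcription factor of the unfolded protein response, was at 3.45 ± 1.26 and 1.96 ± 1.54. DNAJB9 and DNAJB11 differed by 1.05 and 1.03. With linear means the deposited differences of HSPA5, XBP1 and DNAJB11 were 0.54, 0.40 and 0.42, under the limit, so that 2 genes of the list were counted for celecoxib, while 10 were among cells of like total, defined further on. Among those cells 18.9% of all genes were higher with celecoxib. MANF, a secreted survival factor of the same compartment, went the other way (1.70 ± 1.35 and 2.52 ± 1.28). Of 15 cytosolic heat shock genes HSPA8 and DNAJB1 were higher in celecoxib cells by 1.34 and 1.32, and HSP90AA1 was higher in paclitaxel cells by a difference of −0.72. HSPA8 was at 6.62 in control cells, close to its 6.48 in celecoxib cells and above its 5.15 in paclitaxel cells, and with linear means its deposited difference was 0.07. Among cells of like total 7 cytosolic heat shock genes were higher in celecoxib cells, beside the same 18.9% of all genes.

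In the p53 target list 3 of 25 genes passed, all higher in celecoxib cells, beside 3.08% of all genes, and the median was 0.26. They were GDF15, TP53I3 (2.20 ± 1.59 and 1.27 ± 1.36) and CDKN1A, which encodes the cell cycle inhibitor p21 (2.01 ± 2.17 and 1.02 ± 1.54). CDKN1A was detected in 35 celecoxib cells (57.4%, 44.1 to 70.0%) and 25 paclitaxel cells (44.6%, 31.3 to 58.5%), and the intervals overlapped. With linear means 5 genes of the list were higher in celecoxib and 2 in paclitaxel cells, beside 907 and 834 of all 9120 genes. MDM2, the ligase that p53 induces, was at 2.15 and 1.67. TXNIP, an inhibitor of thioredoxin and of glucose uptake, was at 2.44 ± 1.54 and 0.74 ± 1.02, against 0.40 in control cells. Of 21 interferon and antigen presentation genes none passed on both scales, though 2 did with linear means and 5 with a pseudocount of 1 normalized TPM, all higher in celecoxib cells. Over all 9120 genes 907 and 1156 were higher in celecoxib cells under these settings. IFITM1 was at 4.88 ± 1.75 in celecoxib, 4.45 ± 2.20 in paclitaxel and 3.22 in control cells, and IFITM2 at 5.20 ± 1.78, 4.89 ± 2.22 and 3.83.

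Genes of the ribosome, the respiratory chain and the proteasome that passed were higher in paclitaxel cells. Of 85 cytosolic ribosomal proteins 36 passed on both scales and all 36 were higher in paclitaxel cells, beside 4.21% of all genes, with a list median of −0.52 at the same total and −1.10 on the deposited scale. Their number was 22 when cells were rescaled to the same median instead of the same total. The mean of the list had a median of 6.46 in paclitaxel, 5.92 in celecoxib and 6.17 in control cells, and 2 of 61 celecoxib cells exceeded the paclitaxel median. RPL22L1, a ribosomal protein paralog, was at 4.75 ± 0.85 in paclitaxel and 3.01 ± 1.5 in celecoxib cells. RPS21 had a lowest, median and highest value of 5.07, 7.05 and 7.62 in paclitaxel cells and 2.70, 5.77 and 7.02 in celecoxib cells, and no celecoxib cell exceeded the paclitaxel median. Ribosomal protein genes have many processed copies in the genome, so that the assignment of their reads is uncertain.

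Complex I, which passes electrons from NADH to ubiquinone, had 13 of 37 genes higher in paclitaxel cells and none in celecoxib cells, with a median of −0.38 at the same total. Over all genes 4.21% were higher in paclitaxel cells. When cells were rescaled to the same median 4 of its genes passed and the median was −0.24. NDUFS5 was at 7.68 ± 0.34 in paclitaxel, 6.33 ± 0.57 in celecoxib and 7.33 in control cells. Complexes II to IV had 6 of 25 genes and a median of −0.28. Among them COX4I1 was at 7.37 ± 0.36 and 6.23 ± 0.52, and COX6C at 7.59 ± 0.36 and 6.37 ± 0.62. ATP synthase had 7 of 18 genes and a median of −0.47, with ATP5L at 6.68 ± 0.37 and 5.62 ± 0.62. For NDUFS5, COX4I1, COX6C and ATP5L no celecoxib cell exceeded the paclitaxel median. Mitochondrial ribosomal proteins were spread on both sides, since 7 of 77 were higher in paclitaxel cells, MRPS2 was higher in celecoxib cells and the median was 0.16 at the same total and −0.37 on the deposited scale. Among cells of like total 15 were higher in celecoxib and 2 in paclitaxel cells, beside 18.9% and 3.99% of all genes there. With linear means the deposited difference of MRPS2 was 0.40, under the limit. MINOS1, a subunit of the complex that shapes mitochondrial cristae, was at 6.14 ± 0.44 in paclitaxel and 4.58 ± 0.81 in celecoxib cells.

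The proteasome, which degrades ubiquitin-tagged proteins, had 16 of 35 genes higher in paclitaxel cells and none higher in celecoxib cells on both scales, with a median of −0.50 at the same total and −1.05 on the deposited scale. The share of all genes higher in paclitaxel cells was 4.21%. With cells rescaled to the same median 10 genes passed. PSMB4 (ENSG00000159377, chr1:151399560-151401937) had a lowest, median and highest value of 1.35, 5.62 and 6.50 in paclitaxel cells and 0.00, 4.09 and 5.39 in celecoxib cells. Its means were 5.53 ± 0.76 and 3.80 ± 1.29, a difference of −1.74, and control cells were at 5.44. PSMB6 was at 7.20 ± 0.38 and 5.89 ± 0.59, and PSMB7 at 6.05 ± 0.41 and 4.82 ± 0.66. Here both drugs lay below control as a list, with medians of 5.06 in control, 4.73 in paclitaxel and 4.26 in celecoxib cells. For the ribosome and complex I, in contrast, control cells lay between the drugs.

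These groups are of short and abundant mRNAs, and both properties moved with the comparison. Of the 2271 genes with the shortest transcripts (median length up to 757 bases) 7.66% were higher in paclitaxel cells on both scales, and of the 2275 longest (from 2078 bases) 1.5%. Of the 2280 genes with the highest mean E-value 13.1% were higher in paclitaxel cells and 5.09% in celecoxib cells. The median transcript length was 680 bases for cytosolic ribosomal proteins, 643 for complex I and 851 for the proteasome. The part of length and level in these results was not tested.

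Alpha and beta tubulins, which form the microtubule that paclitaxel binds, were higher in paclitaxel cells for 4 of 10 genes compared, beside 4.21% of all genes. Their median difference was −0.37 at the same total. TUBA1B (ENSG00000123416, chr12:49127782-49131397) had a lowest, median and highest value of 4.38, 7.03 and 7.85 in paclitaxel cells and of 0.17, 5.25 and 8.96 in celecoxib cells. Its means were 6.98 ± 0.59 and 5.07 ± 1.71, and control cells were at 7.07, so that paclitaxel cells were at the control level and celecoxib cells below it. TUBA1B was at 5.66 at 2 h of celecoxib and at 6.93 with the combination. TUBA1C was at 4.59 ± 1.04 in paclitaxel and 2.96 ± 1.59 in celecoxib cells, TUBB at 4.49 ± 0.54 and 3.30 ± 1.3, and TUBB4B at 4.40 ± 0.91 and 3.74 ± 1.72. The difference of TUBB4B was under the limit with linear means (−0.05) and among cells of like total (−0.27). TUBA1A, TUBB6 and TUBB3 had differences of −0.45, −0.29 and −0.10, and TUBB2A, TUBB4A and TUBB2B of 0.10, 0.18 and 0.27, none of which passed on both scales. With linear means TUBB2B passed, at 2.13 at the same total and 1.57 on the deposited scale, TUBA1A passed in favour of paclitaxel (−0.68 and −1.01), and TUBB3 was at 0.44 and −0.23. Tubulin paralogs are alike in sequence, so that their reads may be split among them. STMN1, which binds tubulin dimers, was at 6.54 ± 0.79 and 5.34 ± 1.36, and the tubulin folding cofactor TBCC at 1.58 ± 1.19 and 2.75 ± 1.24, whose deposited difference was 0.49 with linear means.

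As lists, cell cycle genes were higher in paclitaxel cells when all cells were used, but not among cells of like total. Of 53 G2/M genes 15 passed with paclitaxel higher and none with celecoxib higher (median −0.32 at the same total), of 41 S phase genes 8 (median −0.20), of 24 mitotic kinesins and checkpoint genes 7 (median −0.33) and of 31 genes of the MCM helicase and replication 6 (median −0.21). Over all genes 4.21% passed with paclitaxel higher, and the median difference was 0.09 at the same total. Both drugs lay below control, where the median of the G2/M mean was 2.30, against 1.85 with paclitaxel and 1.36 with celecoxib. PTTG1, securin, which holds back sister chromatid separation, was at 4.37 ± 1.86 in paclitaxel and 2.24 ± 2.34 in celecoxib cells (4.61 in control). CENPW of the centromere was at 3.57 ± 1.28 and 1.60 ± 1.63, and was detected in 54 paclitaxel cells (96.4%, 87.7 to 99.6%) and 33 celecoxib cells (54.1%, 40.9 to 66.9%). RRM2, the regulated subunit of ribonucleotide reductase, was at 2.53 ± 1.51 and 0.87 ± 1.32, PCLAF, a PCNA-binding factor, at 3.17 ± 1.40 and 1.61 ± 1.76, and AURKB, a mitotic kinase, at 2.50 ± 2.25 and 1.12 ± 1.80.

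The letters TTTGAA of the cell cycle homology region, on either strand, stood in 31 of 44 G2/M promoters (70.5%), in 12.3% of those of genes higher in paclitaxel cells and in 9.59% of all promoters. Genes higher in paclitaxel cells include G2/M genes with the letters, such as CCNB2 and SMC4, so that these shares are not separate. CCNB2, the mitotic cyclin B2, is shown as an example (chr15:59105061-59105145 of GRCh38.p14, plus strand), with the match in capitals 29 bases before the start and an NF-Y box (ccaat) further upstream.
CCNB2: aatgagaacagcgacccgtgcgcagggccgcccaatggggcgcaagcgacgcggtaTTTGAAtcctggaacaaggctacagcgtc
The E-value of CCNB2 was 2.52 ± 1.95 in paclitaxel, 1.64 ± 1.90 in celecoxib and 3.54 in control cells.

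Cells with a higher total also had more G2/M transcript at the same total, and more so in paclitaxel cells. Pearson's r between the G2/M mean and the log2 total was 0.56 over 56 paclitaxel cells and 0.29 over 61 celecoxib cells (Spearman's rho 0.55 and 0.38). The ATF4 and CHOP mean followed the total in paclitaxel cells (r = 0.56) and hardly in celecoxib cells (r = 0.03). The cells of each drug count as 1 sample, and the totals also move with the genes detected, so that these are descriptions only. To compare cells of like total, 28 celecoxib and 24 paclitaxel cells with totals between −1.58 and −0.91 were taken, from the 10th percentile of paclitaxel to the 90th of celecoxib cells. Their median totals were −1.26 and −1.21, and their median genes detected were 6552 and 5880. In them the median difference over all genes was 0.19 at the same total. On both scales 18.9% of all genes were higher in celecoxib and 3.99% in paclitaxel cells. Each count given for cells of like total stands beside these shares.

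**Figure D3:**
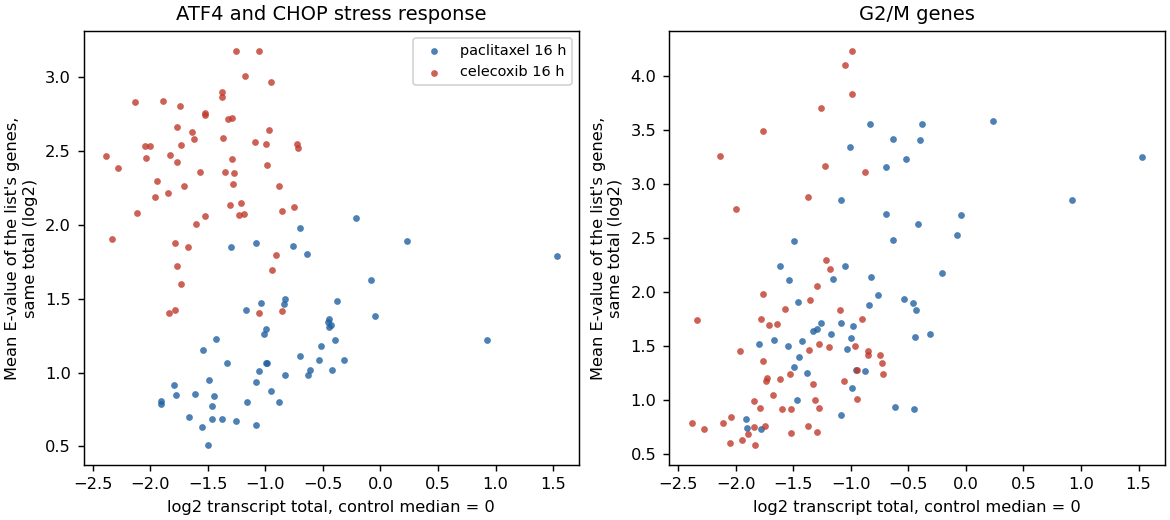
Each point is a cell, with its log2 transcript total on the x axis (control median at 0) and the mean E-value of a gene list at the same total on the y axis (log2), for the ATF4 and CHOP list on the left and the G2/M list on the right. At the totals they share most celecoxib cells lie above the paclitaxel cells in the stress response, while the G2/M values overlap.

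Among these cells the median of the G2/M list was 0.15, with 8 genes higher in celecoxib and 2 in paclitaxel cells, and the S phase, mitotic and replication lists had medians of 0.20, 0.14 and 0.18. These medians lay near the 0.19 of all genes, so that their move above 0 is not particular to the lists. UBE2C, which serves the anaphase-promoting complex, changed from −1.05 to 0.15, and AURKB, CCNB2 and the chromatin protein gene HMGB2 from −1.38, −0.89 and −0.71 to −0.13, −0.13 and −0.22. PTTG1, CENPW and RRM2 remained higher in paclitaxel cells, with differences of −1.40, −1.78 and −1.16. The stress response, synthetase, ribosome, respiration and proteasome lists kept their side. The ATF4 and CHOP list had a median of 1.14 with 27 genes higher in celecoxib cells, beside 18.9% of all genes in this subset, and the synthetases had 0.93 with 12 genes. Cytosolic ribosomal proteins were at −0.59 with 42 genes higher in paclitaxel cells, beside 3.99% of all genes, complex I at −0.41 with 13, ATP synthase at −0.64 with 10 and the proteasome at −0.46 with 13. On the celecoxib side were 3 proteasome genes, 1 ATP synthase gene and 1 gene of complexes II to IV, beside 18.9% of all genes. MAT2A differed by 3.53, DDIT4 by 3.11, TUBA1B by −1.68 and PSMB4 by −1.79.

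**Figure D4:**
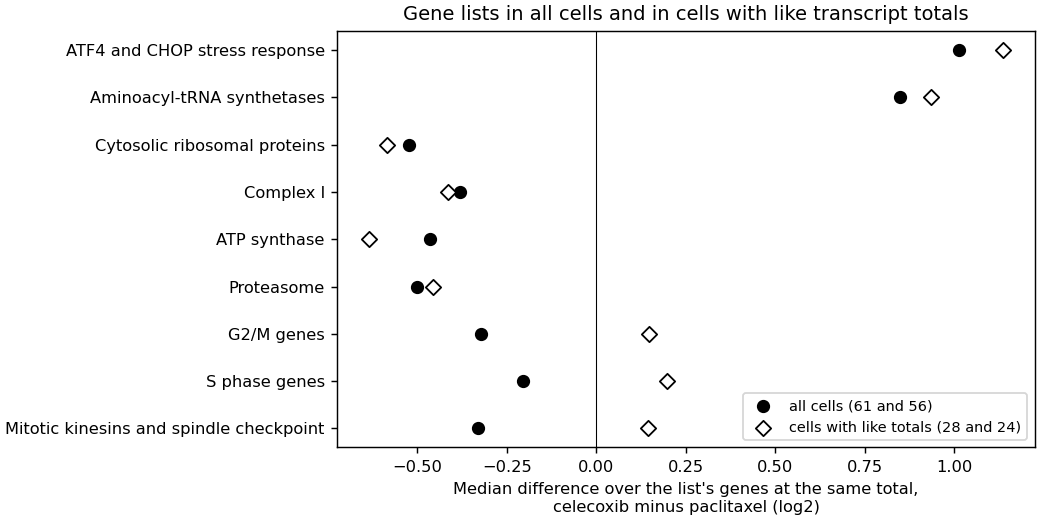
The x axis gives the median difference over the genes of a list at the same total (celecoxib minus paclitaxel, log2) in all 61 and 56 cells (filled) and in the 28 celecoxib and 24 paclitaxel cells of like total (open). The G2/M, S phase and mitotic lists move from below to above 0, and the other 6 lists stay on their side. Over all genes the median was 0.19 in the cells of like total, so that 0 is not the level of all genes there.

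The spread between cells was large beside most differences. The median SD of a gene was 0.98 in celecoxib and 0.87 in paclitaxel cells, and 73.1% of the 9120 genes had the larger SD in celecoxib cells. Of the genes past the limit on both scales, 74 of the 281 higher in celecoxib cells and 115 of those higher in paclitaxel cells differed by more than the SD of either drug. MAT2A, SLC3A2, SARS and EIF4EBP1 were of this kind on the celecoxib side, and NDUFS5, COX4I1, PSMB6 and DDX46 on the paclitaxel side. No gene separated the cells of the drugs without overlap. DDX46, an RNA helicase of the spliceosome, was detected in all 56 paclitaxel cells and in 45 celecoxib cells (73.8%, 60.9 to 84.2%), with means of 2.23 ± 0.72 and 0.70 ± 0.62. TTC32 was detected in 31 paclitaxel cells (55.4%, 41.5 to 68.7%) and 6 celecoxib cells (9.84%, 3.7 to 20.2%), and FANCL, the ligase of the Fanconi pathway, in 51 (91.1%, 80.4 to 97.0%) and 29 (47.5%, 34.6 to 60.7%). SSBP3 was detected in 47 paclitaxel cells (83.9%, 71.7 to 92.4%) and 24 celecoxib cells (39.3%, 27.1 to 52.7%). Its difference at the same total was −0.33, under the limit.

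**Figure D5:**
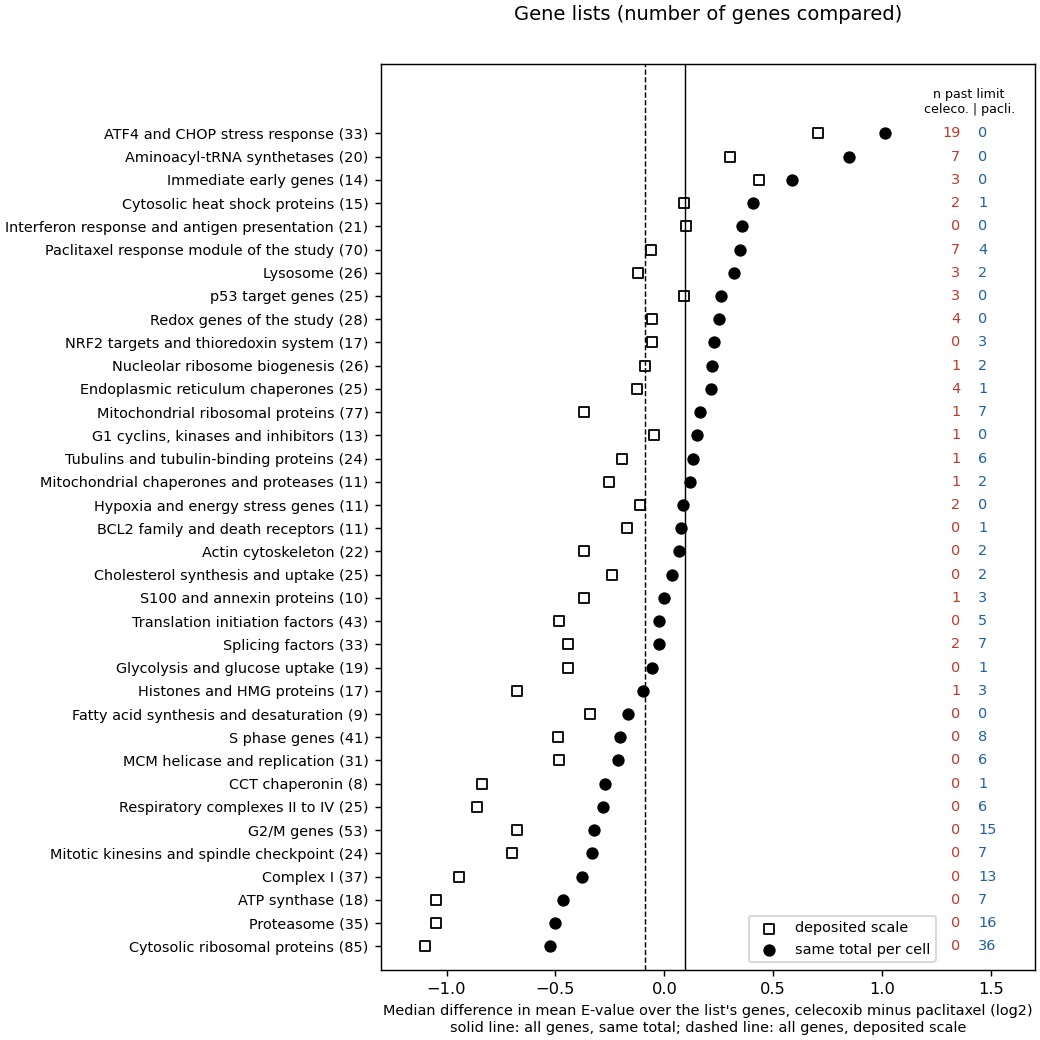
For each gene list, with the number of genes compared in brackets, the x axis gives the median difference in mean E-value (celecoxib minus paclitaxel, log2) with deposited values (open squares) and with equal totals (filled circles). Coloured numbers count the genes higher in celecoxib (left, red) and in paclitaxel cells (right, blue) on both scales, and vertical lines give the median of all genes. The ATF4 and CHOP list lies at the upper end with 19 and 0 genes, and cytosolic ribosomal proteins at the lower end with 0 and 36.

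Few genes of the metabolic lists passed. Of 25 genes of cholesterol synthesis and uptake FDPS (4.98 ± 0.93 and 3.90 ± 1.20 in paclitaxel and celecoxib cells) and IDI1 (2.16 ± 1.31 and 1.27 ± 1.12) passed, both higher in paclitaxel cells, and the median was 0.03. With a pseudocount of 1 normalized TPM 6 were higher in paclitaxel cells and 1 in celecoxib cells, and among cells of like total 2 and 3. Over all 9120 genes that pseudocount gave 1027 and 1156, and among cells of like total the shares were 3.99% and 18.9%. None of 9 fatty acid genes passed on both scales, with ACLY at 1.27 ± 0.76 and 0.83 ± 0.85, which passed with linear means (−0.64 at the same total). Of 19 glycolysis genes LDHA passed (6.62 ± 0.62 and 5.82 ± 0.82). In the thioredoxin and NRF2 list 3 of 17 genes passed, TXN (6.25 ± 0.46 and 5.15 ± 0.64), PRDX1 (7.84 ± 0.43 and 7.11 ± 0.47) and TKT (1.92 ± 1.09 and 1.17 ± 1.19), all higher in paclitaxel cells. Among cells of like total 3 of the list were higher in celecoxib and 5 in paclitaxel cells, beside 18.9% and 3.99% of all genes. FABP5, a fatty acid binding protein, was at 2.99 ± 2.18 and 1.24 ± 1.49. Of 5 genes of prostaglandin synthesis and breakdown none passed on both scales, and PTGES3 was at 4.98 ± 0.94 and 4.43 ± 0.71. Carbonic anhydrases, enzymes that celecoxib also binds through its sulfonamide group, were divided, with CA14 higher in celecoxib cells (0.83 ± 1.15 and 2.01 ± 1.63 in paclitaxel and celecoxib cells) and CA11 higher in paclitaxel cells (2.31 ± 1.26 and 1.61 ± 1.23).

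The study itself had chosen 2 lists on these cells, so that their direction is not independent evidence. Of 70 genes compared in its paclitaxel response module 7 were higher in celecoxib and 4 in paclitaxel cells, with a median of 0.35 at the same total and −0.06 on the deposited scale. Among cells of like total 26 were higher in celecoxib and 6 in paclitaxel cells, and with a pseudocount of 1 normalized TPM 18 and 10. The shares of all genes among cells of like total were 18.9% and 3.99%, and that pseudocount gave 1156 and 1027 of all 9120 genes. S100A11 (3.10 ± 2.87 in celecoxib and 1.62 ± 2.31 in paclitaxel cells) and YIPF3 were on the celecoxib side, and LGALS1 (3.72 ± 1.62 and 4.57 ± 1.51) and S100A4 on the paclitaxel side, though the difference of S100A4 at the same total was −0.30 with linear means, under the limit. Of its 28 redox genes HSD17B14, NOS3, TP53I3 and ALDH2 were higher in celecoxib cells and none in paclitaxel cells, against 11 and 1 among cells of like total. The median of the module per cell was 1.83 with paclitaxel and 2.08 with celecoxib at 16 h, and 2.46 at 48 h of paclitaxel.

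Of 21 genes that mark carcinoma lines or other cell types 5 were listed and 3 were compared, and none passed the limit. VIM, an intermediate filament gene, was at 2.02 in celecoxib and 2.07 in paclitaxel cells, while LYZ of myeloid cells was at 0.13 and 0.07 and COL1A2 of fibroblasts at 0.50 and 0.17. LUM and KRT18 were listed but not compared, with LUM at 0.95 and 0.42. With linear means COL1A2 was higher in celecoxib cells by 2.15 at the same total and 1.74 on the deposited scale, past the limit. Doublets were not called, for want of read counts.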

How the data were processed

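Single A2780 cells were captured on the C1 system and sequenced after Smart-seq2. Adapters were removed by the authors (Trim Galore), who mapped with Bowtie2 to GENCODE transcripts (hg38) plus 3 spike-ins and quantified TPM in RSEM 1.3.0. They scaled each cell to its highest spike-in, dropped cells of poor quality and left out genes found in 30% or fewer cells in every condition. What they deposited is a log2 value, E = log2(N/10 + 1), with a pseudocount of 10 normalized TPM. Of 67 celecoxib and 58 paclitaxel cells listed, 61 and 56 have values. No depth in reads is given.

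Mean E-values of the drugs were compared as deposited and after the linear N of each cell was rescaled to the median total of the 117 cells (634004). Differences above log2 of 1.5 (0.585) were counted. Wells noted as holding 0 cells or debris and identical columns numbered 0 among these cells. The gene lists and members were chosen with earlier results of these data known. Named genes are the 12 with the largest smaller difference of both scales in each direction, up to 4 per list and direction, all alpha and beta tubulins, genes the study names, and the 3 with the largest difference in share of cells detected in each direction. Other list members are named after their values were seen. The protein sequences of tubulins were not analysed here. Alternatives were linear means, a pseudocount of 1, other detection limits, cells of like total and other rescalings. Coordinates are from GENCODE version 44 on hg38, which matched 9643 of 9664 identifiers. The steps were tested on simulated data. Scripts ran in Python 3.11.15 (pandas 2.3.3, numpy 2.4.6, matplotlib 3.10.9, scipy 1.17.1).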

Additional observations from a re-analysis of the deposited data

How the results depend on the processing

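The direction of the transcript total was kept under every alternative tried (means, a smaller set of abundant genes, all but the top 50), with values between −0.51 and −0.59. The number of genes past the limit depended on the scale and on the subset of cells. With a ratio of linear means 907 genes were higher in celecoxib and 3373 in paclitaxel cells with deposited values, 3204 and 834 at the same total, and 907 and 834 in both. With a pseudocount of 1 normalized TPM the counts were 1156 and 2387, 2304 and 1027, and 1156 and 1027. Among the 28 celecoxib and 24 paclitaxel cells of like total they were 1768 and 361 with deposited values. For celecoxib they were 1724 at the same total and 1709 on both scales, where 276 of the original 281 genes were included. Fewer calls were kept for paclitaxel. Of the 665 genes past the limit on both scales in all cells, those higher in paclitaxel cells kept 265 calls there. Celecoxib cells of this subset detected more genes, and the cause was not tested. Rescaling to the same median left 252 paclitaxel genes at the same total and on both scales. With no detection filter or a limit of 50% of cells the counts stayed within 1.5 times. Of 135 named genes past the limit 117 kept their call with linear means and 135 with a pseudocount of 1. Among cells of like total 112 did, and 123 with the same median. Many were named for large differences, so that these numbers do not stand for all genes past the limit. The 907 and 834 genes of linear means held 209 of the 281 celecoxib genes and 313 of the rest of the 665. A pseudocount of 1 kept all of them while the counts rose to 1156 and 1027, so that it was a weak check. ANXA1 reversed to 0.034 with linear means and UBE2C to 0.15 among cells of like total. No paired analysis was possible because no second culture or capture is named for either drug and no cell of one is numbered as the partner of a cell of the other. No value therefore has a replicate check, and no alternative can separate the drug from its index block or its dose.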

Other observations

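Genes of RNA processing, chromatin and translation initiation went both ways. Their counts depended on the cells used, as did those over all genes. Among cells of like total 18.9% of all genes were higher in celecoxib and 3.99% in paclitaxel cells, and the list counts there stand beside these shares. Of 33 SR and hnRNP splicing factors 7 were higher in paclitaxel and 2 in celecoxib cells on both scales, with a median of −0.02 at the same total. HNRNPL was at 3.08 ± 0.67 in paclitaxel and 2.15 ± 0.92 in celecoxib cells (SD over 56 and 61 cells), and HNRNPDL at 4.05 ± 0.91 and 2.96 ± 1.3, while SRSF8 was at 0.87 ± 0.92 and 2.16 ± 1.33 and SRSF4 at 1.09 ± 0.93 and 2.20 ± 1.08. Among cells of like total 9 were higher in paclitaxel and 6 in celecoxib cells. Of 17 histone and HMG genes HMGB1 (7.11 ± 0.62 and 6.23 ± 0.56), HMGB2 and HMGB3 were higher in paclitaxel cells and HMGN4 in celecoxib cells (1.62 ± 1.36 and 3.07 ± 1.20 in paclitaxel and celecoxib cells), and among cells of like total 2 of the list were higher on either side. The difference of HMGB2 was −0.16 with linear means. Of 43 translation initiation factors 5 were higher in paclitaxel cells, with EIF3K at 5.44 ± 0.56 and 4.67 ± 0.71. Among cells of like total 8 were higher in celecoxib and 3 in paclitaxel cells, beside the shares of all genes just given. NPM1, an abundant nucleolar protein, was at 7.00 ± 0.49 and 6.02 ± 0.52, and the nucleolar methyltransferase gene NOP2 went the other way, at 0.50 ± 0.74 and 1.96 ± 1.3. The nucleolar list had 1 gene higher in celecoxib and 2 in paclitaxel cells, and 5 and 2 among cells of like total.

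The mitochondrial chaperonin genes HSPD1 (6.15 ± 0.34 in paclitaxel and 5.32 ± 0.49 in celecoxib cells) and HSPE1 (6.76 ± 0.54 and 5.97 ± 0.55) were higher in paclitaxel cells, and the mitochondrial protease gene LONP1 (1.3 ± 1.11 and 2.37 ± 1.19) in celecoxib cells. CCT2 passed among 8 genes of the cytosolic chaperonin, which folds tubulin and actin, at 4.83 ± 0.82 and 4.22 ± 0.77. Of 26 lysosomal genes LAMP2, NEU1 and the protease gene CTSB were higher in celecoxib cells, by 1.03, 1.05 and 1.38, and GLA and ATP6V1E1 in paclitaxel cells, by differences of −1.01 and −0.78. Among cells of like total 11 lysosomal genes were higher in celecoxib and 1 in paclitaxel cells, and ATP6V1E1 and GLA had differences of −0.01 and −0.30, under the limit. The deposited difference of CTSB was 0.53 with linear means, also under it.

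ANXA1 had the widest spread of the genes named. Its lowest, median and highest E-values were 0.00, 6.27 and 9.27 in paclitaxel cells and 0.00, 1.03 and 9.41 in celecoxib cells, and its means were 4.65 ± 3.44 and 3.87 ± 3.79, so that the difference of −0.78 is smaller than either SD.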
